A study of Mus musculus with 12 samples.

Results

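The miR-379 to miR-410 cluster is a run of miRNA hairpins at the distal end of the imprinted Dlk1-Dio3 domain. Its members were chosen by name alone: every entry of the deposited table that carried one of the hairpin names of the cluster, as mature arm or as precursor, was kept, whatever its counts. This gave 94 of the 1053 entries in the table, made up of 62 mature arms and 32 precursors. Small RNA was sequenced from 12 libraries of sorted mouse embryonic cells, 3 at each of the stages E8.5, E9.5, E10.5 and E11.5. Each library came from a single embryo. The E8.5 cells had the genotype Foxa2-CreER, tdtomato+, and were endoderm sorted from whole embryos after tamoxifen had been given to the dam. Foxa2-CreER is a knock-in of an inducible Cre recombinase at the endoderm gene Foxa2. The cells of E9.5, E10.5 and E11.5 had the genotype Pdx1-Cre, tdtomato+, and were sorted from the trunk, although their labels give the tissue as pancreas. Pdx1-Cre is a transgene active in early pancreatic and duodenal epithelium. In both lines Cre switched on the red reporter, and cells that descend from a Cre-expressing cell keep it. The crosses used males in which 1 mir-302 allele was replaced by eGFP, and the labels do not give the mir-302 genotype of the embryos. The Cre driver and the dissected region changed together with stage between E8.5 and the later stages, and the libraries of a stage shared 1 number in their names, so stage cannot be told apart from these. In sorted pools, fewer cells that express a miRNA and less of it per cell cannot be told apart either.

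The Dlk1-Dio3 domain is imprinted, and its non-coding RNAs, including these miRNAs, are expressed from the maternal chromosome. The cluster is one of the largest groups of miRNA genes in placental mammals and is thought to be processed from long transcripts that run through Meg3, Rian and Mirg. It is best known from the brain, where miR-134 acts on dendritic spines through Limk1, and mice that lack the cluster show poor metabolic adaptation at birth. Each hairpin can give a 5p arm and a 3p arm. An arm loaded into an Argonaute protein finds target mRNAs mainly through its seed, the stretch from base 2 to base 8, so arms with the same seed can share targets and the 2 arms of 1 hairpin usually do not.

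The sequences of the arms that carried most of the cluster's reads are given first, 5′ to 3′, with the seed in capitals. A mature sequence was found for 59 of the 62 arms in RefSeq (GRCm38.p6), and miR-487b-3p, miR-485-5p and miR-376c-3p had none there. The 4 most abundant arms and the partner arm of the first hairpin have 5 different seeds:
miR-379-5p: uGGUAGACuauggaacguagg
miR-379-3p: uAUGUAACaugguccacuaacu
miR-409-3p: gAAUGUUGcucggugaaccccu
miR-541-5p: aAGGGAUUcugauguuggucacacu
miR-382-5p: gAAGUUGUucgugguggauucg

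The next arms in abundance with a sequence are shown because some of them resemble the arms above:
miR-543-3p: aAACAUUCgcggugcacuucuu
miR-411-5p: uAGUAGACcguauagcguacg
miR-323-3p: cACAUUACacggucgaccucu
miR-369-3p: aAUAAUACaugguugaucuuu
miR-495-3p: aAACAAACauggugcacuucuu

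The 59 sequences held 55 different seeds, and 4 seeds were shared by a pair of cluster arms. The pairs are shown because their counts can be mixed where the sequences are near-identical:
miR-1193-5p: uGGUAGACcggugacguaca
miR-411-3p: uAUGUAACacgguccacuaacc
miR-299a-3p: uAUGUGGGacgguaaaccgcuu
miR-299b-3p: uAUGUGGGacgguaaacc
miR-376b-5p: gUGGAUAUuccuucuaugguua
miR-376c-5p: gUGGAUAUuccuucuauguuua

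The seed of miR-379-5p is also that of miR-1193-5p, and beyond the seed the 2 arms are unlike, with 10 of 20 bases the same when counted from the 5′ end. The seed of miR-379-3p is that of miR-411-3p, and these arms differ at 2 of 22 bases. The 5p arms of the same hairpins, miR-379-5p and miR-411-5p, have 1 seed difference, G2A, with positions counted from 1 at the 5′ end and the base of miR-379-5p first. MiR-376b-5p and miR-376c-5p differ at 1 of 22 bases. All 18 bases of miR-299b-3p are the start of miR-299a-3p, and the hairpins lie on opposite strands of the same stretch. Reads of these last arms that stop within the 18 bases cannot be told apart by sequence. Whether strand was used in counting is not given in the sources used here, so the values of both arms are uncertain. MiR-543-3p and miR-495-3p were the same at 18 of 22 bases but had 2 seed differences, U6A and U7A. There were 5 seeds of the cluster that were also found in an outside arm with an entry in these data. Examples were that of miR-410-3p in miR-344d-3p and miR-344e-3p and that of miR-329-3p in miR-362-3p. Some other seeds of the cluster had outside arms in RefSeq that had no entry here, 2 for miR-495-3p and 1 for miR-411-5p. The cluster gave 87.3% of all counts with the miR-410-3p seed and 94.7% of those with the miR-329-3p seed. The other 3 of the 5 seeds were those of miR-1193-3p, miR-412-3p and miR-377-5p, for which the cluster gave 88.0%, 1.43% and 2.28% of the counts.

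Of the 36 hairpins with an entry, 35 had a hairpin position in the annotation (GRCm38, chromosome 12), all but mir-666. From the start of Mir379 at 109709060 to the end of Mir410 at 109743795 they covered 34.736 kb, and Mir3072, which the name rule included, ended at 109747960, beyond a gap of 4.083 kb. On the plus strand lay 34 of them, and Mir299b lay on the minus strand opposite Mir299a. The first 22 hairpins with a position, from Mir379 to Mir539, were between annotated genes. The other 13 overlapped Mirg, a long non-coding RNA gene at 109729764 to 109749460, with 9 in exons and 4 in introns. The arms of mir-666 had positions, at 109717103 to 109717124 and 109717140 to 109717161, between Mir1193 and Mir543. The most abundant arms came from both ends of the cluster. MiR-379-5p is at 109709065 to 109709085, at the very start, miR-382-5p at 109733781 to 109733802 in an exon of Mirg, miR-541-5p at 109742422 to 109742446 and miR-409-3p at 109743204 to 109743225 in introns of Mirg.

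**Figure D1:**
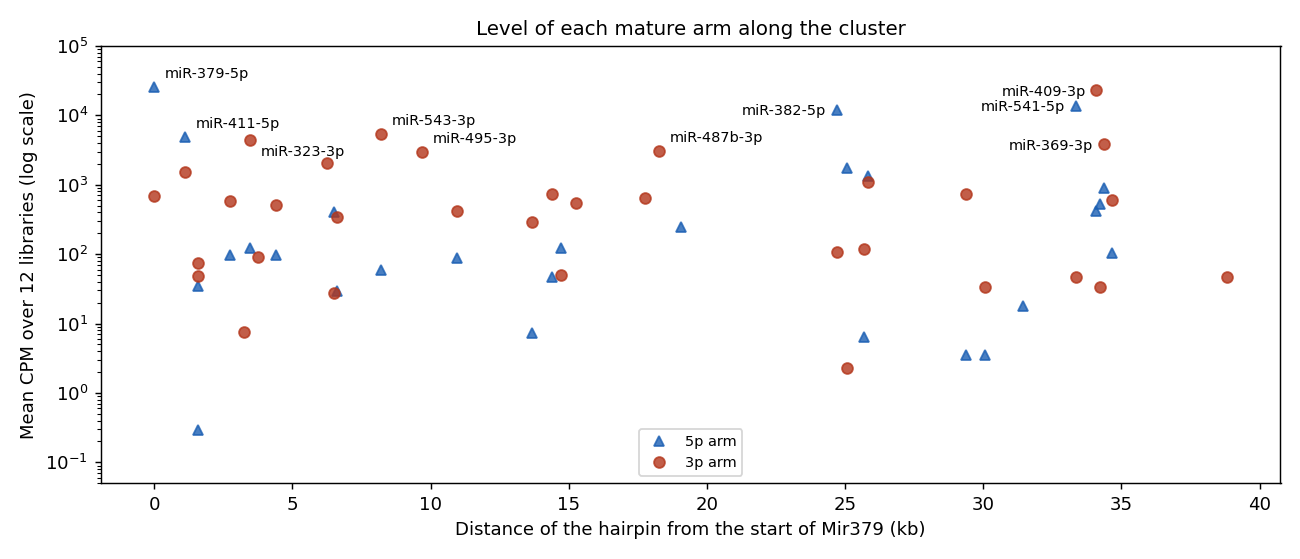
Mean level of each mature arm with a hairpin position (CPM, mean of 12 libraries, log axis) against the distance of its hairpin from the start of Mir379 in kb. The 5p arms are triangles and the 3p arms circles, and the 2 arms of mir-666 are not shown. The 10 most abundant arms are named, from 25491 CPM for miR-379-5p at the left edge to 2936 CPM for miR-495-3p, and they are spread along the whole cluster.

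The libraries held 53996 to 1103383 counts in all, and those of E9.5 were the smallest. Levels are given as CPM, counts scaled to a common library size with TMM factors. A level that 3 counts represent, taken as the floor of detection, was 2.76 to 7.80 CPM in the libraries of E8.5 and E11.5, 32.2 to 76.3 CPM in those of E9.5 and up to 25.9 CPM in those of E10.5. Counts are reads after PCR, so floors and confidence intervals cover counting error only. Of the 62 mature arms, 32 were detected in every library. The 11 most abundant arms had a median coefficient of variation between libraries of 9.74% within E8.5, 36.4% within E9.5, 24.4% within E10.5 and 17.5% within E11.5. For the next 20 arms it was 50.7%, 101%, 62.0% and 36.2% in the same order, and for the 21 after these it was 98.3%, 132%, 162% and 101%. The last 10 arms had under 100 counts each over the series. Among the members, 23 of the 94, none with more than 234 counts in total, did not pass the filter on low counts and were not tested.

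The cluster supplied a large part of the miRNA reads of these cells. Its mature arms took 8.29%, 8.33% and 8.17% of all counts in the 3 libraries of E8.5. They took 10.2%, 13.4% and 8.53% in those of E9.5, 14.3%, 14.6% and 13.7% in those of E10.5, and 16.7%, 12.1% and 11.2% in those of E11.5. In this share of all counts, precursor entries included, all libraries of the later stages lay above those of E8.5. Those of E10.5 lay above those of E9.5, and E11.5 overlapped with both. As means these shares were 8.26% ± 0.0822 (SD, n = 3), 10.7% ± 2.48, 14.2% ± 0.441 and 13.3% ± 2.98. The Wilson 95% intervals of single libraries were narrow beside this spread at E9.5 and E11.5, at 8.30% to 8.77% for the shallowest library. At E8.5 they were about as wide as the spread, at 8.22% to 8.37% for replicate 1. The interval of the shallowest library, E9.5 replicate 3, overlapped with that of E8.5 replicate 2 (8.24% to 8.42%). As a percent of mature counts alone, the arms held 12.8%, 17.1% and 13.3% at E9.5 and 16.3%, 16.9% and 15.7% at E10.5. The libraries of E9.5 and E10.5 overlapped in that share, and all later libraries stayed above those of E8.5 (9.12% to 9.32%). As a sum of CPM the arms reached 76398 ± 6590, 113067 ± 5684, 147883 ± 19320 and 132338 ± 24697 from E8.5 through E11.5. No test was made of these sums, because the members were chosen with earlier results known. The order of stages depended on the scaling: with RLE size factors E9.5 came highest, at 158634 CPM against 145483 at E10.5, and E8.5 stayed lowest at 67918 CPM.

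**Figure D2:**
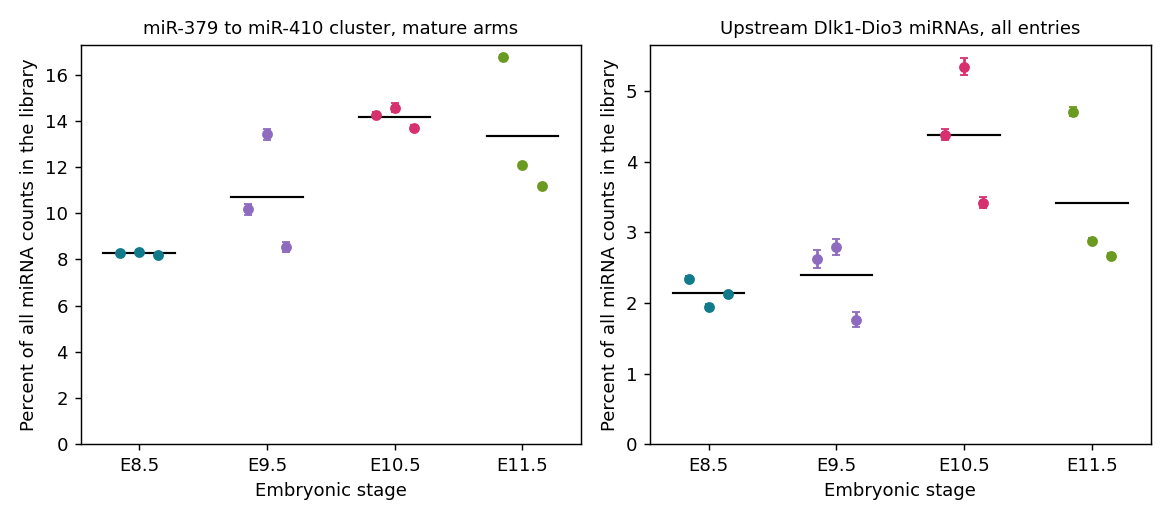
Percent of all miRNA counts of a library taken by the mature arms of the cluster (left) and by all entries of the upstream Dlk1-Dio3 miRNAs (right), by embryonic stage. Points are libraries with Wilson 95% intervals and lines are stage means. On the left the E8.5 libraries sit at 8.17% to 8.33%, below the libraries of every later stage.

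The miRNAs that lie upstream in the same domain, near Meg3, Rtl1 and Rian, formed the nearest comparison. Their 39 entries took 2.14% ± 0.200, 2.39% ± 0.549, 4.38% ± 0.962 and 3.42% ± 1.12 of the counts from E8.5 through E11.5. Set against the mature counts of the cluster, the 24 mature arms among these entries came to 23.9% ± 1.76, 20.5% ± 4.23, 28.1% ± 4.29 and 23.4% ± 2.59. In this ratio the libraries of E8.5 overlapped with those of each later stage. Of these 39 entries 32 were tested, and in no pairwise comparison was 1 called by the edgeR quasi-likelihood test. By that test 2 to 7 of them had an unadjusted p under 0.05, against 61 to 133 of all 571 entries. MiR-370-3p and miR-673-3p were called in the test over all 4 stages, 6.25% of these entries against 15.9% of all entries. MiR-673-3p was at 0 in every library before E11.5 and had 90, 60 and 33 counts there.

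A few arms made up most of the cluster's output. MiR-379-5p, miR-409-3p, miR-541-5p and miR-382-5p together held 62.4% of its mature counts as a mean of 12 libraries, with 51.9% to 74.8% in single libraries, and the 10 most abundant arms held 83.6% of the pooled mature counts. Levels of these 10 arms ran from 25491 CPM for miR-379-5p to 2936 CPM for miR-495-3p, as means of 12 libraries.

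**Figure D3:**
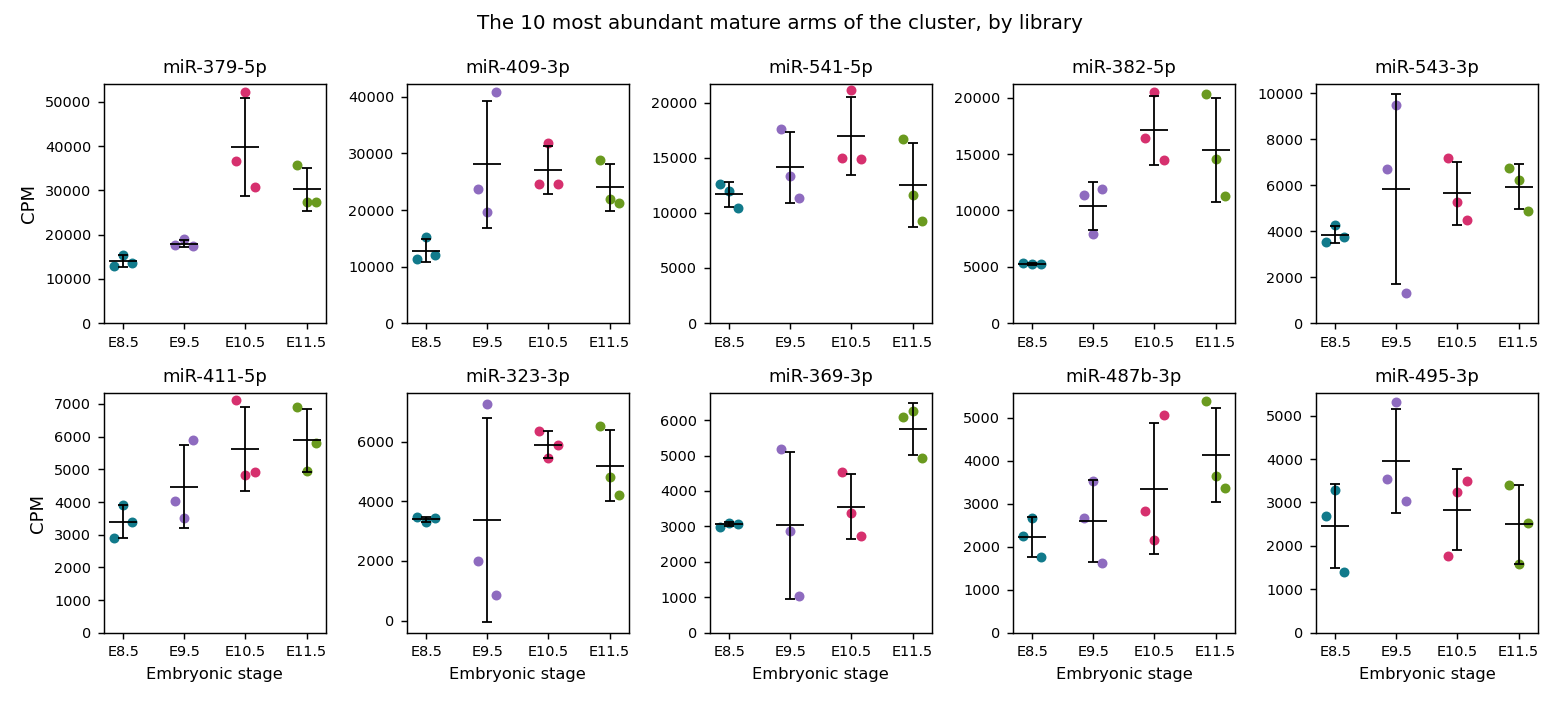
CPM of the 10 most abundant mature arms in each library, by embryonic stage (each panel has its own scale). Coloured points are libraries, and black marks are the mean ± SD of 3 libraries. The E8.5 libraries of miR-379-5p, miR-409-3p and miR-382-5p lie below every library of the later stages.

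Across stages the cluster was read from 1 fit over all entries that passed the filter, 71 of them members of the cluster (49 mature arms and 22 precursors). The edgeR quasi-likelihood test was used, and a call needed an adjusted p under 0.05 (Benjamini-Hochberg, over all entries tested). In the test of any difference among the 4 stages, 15.9% of all entries were called and 4 of the 71 members (5.63%). These were miR-379-5p with adjusted p = 0.000521, miR-382-5p with adjusted p = 0.00394, miR-409-3p with adjusted p = 0.0325 and miR-379-3p with adjusted p = 0.0389, all by that test. The call of miR-379-5p held under every alternative run, and that of miR-382-5p was lost without E8.5 replicate 2 (adjusted p = 0.0536, edgeR). That of miR-409-3p was lost without any 1 of the E8.5 libraries, without E10.5 replicate 2 or E11.5 replicate 2, and with library size alone (adjusted p of 0.0509 to 0.162, edgeR). That of miR-379-3p was lost with RLE size factors, with the replicate block and in 9 of the 12 fits that left out a library, all but those without E9.5 replicate 1, E9.5 replicate 3 or E10.5 replicate 3 (adjusted p of 0.0528 to 0.144, edgeR). DESeq2 called 8 of the 68 members to which it gave an adjusted p, against 25% of all such entries. The share of members called was below that of all entries with both tools. In every pairwise comparison of the edgeR fit over all 12 libraries that called one of them, the arm was higher at the later stage.

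MiR-379-5p, the most abundant arm of the cluster, stood at 12794, 15423 and 13683 CPM in the libraries of E8.5. At E9.5 it stood at 17579, 18885 and 17450 CPM, at E10.5 at 36548, 52136 and 30814 CPM, and at E11.5 at 35805, 27346 and 27429 CPM. No library of E8.5 or E9.5 reached the lowest library of E10.5 or E11.5, and E10.5 and E11.5 overlapped. Between E9.5 and E10.5 the level rose by 1.15 (log2, SE 0.26, adjusted p = 0.0111, edgeR), and between E8.5 and E11.5 by 1.11 (log2, SE 0.26, adjusted p = 0.00473, edgeR). The second of these calls held in all 12 fits that left out a library and in the 8 other alternatives, with log2 values of 1.00 to 1.22. The first was lost without E9.5 replicate 2 (log2 1.02, adjusted p = 0.0612, edgeR), without E10.5 replicate 1 (1.02, 0.0924) and without E10.5 replicate 2 (0.90, 0.137). It was also lost with RLE size factors and in DESeq2, where the log2 value was 0.66 in both, and with only the 2 stages compared (0.90, 0.15). With RLE size factors and in DESeq2 the arm was instead called higher at E9.5 than at E8.5. The log2 value of that step was 1.01 in both, with adjusted p = 0.0380 (edgeR) and 0.0436 (DESeq2). The edgeR fit with TMM factors did not call it.

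MiR-379-3p, the other arm of this hairpin, was far less abundant, at 282, 107 and 372 CPM at E8.5 and 32.7, 96.7 and 153 CPM at E9.5. At E10.5 it stood at 2179, 1754 and 243 CPM and at E11.5 at 1030, 868 and 1256 CPM. The E9.5 values rest on 2, 9 and 6 counts, and all 3 lie below every library of E10.5 and E11.5. The difference of E10.5 from E9.5 was 3.91 (log2, SE 1.11, adjusted p = 0.0450, edgeR) and that of E11.5 from E9.5 was 3.50 (log2, SE 1.10, adjusted p = 0.0703, edgeR). The first was lost in 10 of the 12 fits that left out 1 library, with log2 values of 3.25 to 3.98 and adjusted p of 0.0518 to 0.220 by edgeR. Of these fits it was kept only in those without E9.5 replicate 3 or without E10.5 replicate 3. With all libraries it was lost with RLE size factors (log2 3.35, adjusted p = 0.0951, edgeR), with the replicate block (3.96, 0.0911) and with only the 2 stages compared (3.62, 0.176), and it was kept in the other 5 alternatives. The 5p arm gave 94.4% to 99.8% of the reads of both arms in every library, with precursor reads left out.

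MiR-409-3p, from the other end of the cluster, stood at 11270, 15158 and 12063 CPM at E8.5 and 23690, 19691 and 40853 CPM at E9.5. At E10.5 it stood at 24571, 31900 and 24594 CPM and at E11.5 at 28847, 22010 and 21202 CPM. Every library of the Pdx1-Cre stages was above every library of E8.5, and these 3 stages overlapped with each other. It was the 1 member called between E8.5 and E9.5, at a log2 difference of 1.13 (SE 0.30, adjusted p = 0.0225, edgeR). Its difference of E11.5 from E8.5 was 0.90 (log2, SE 0.29, adjusted p = 0.0470, edgeR). The E9.5 call was lost without any 1 of the E8.5 libraries (log2 1.05 to 1.16, adjusted p of 0.103 to 0.163, edgeR), without E9.5 replicate 3 (0.76, 0.133) and with library size alone (0.85, 0.0574). The E11.5 call was lost without any 1 of the E8.5 or E11.5 libraries or without E10.5 replicate 3 (log2 0.87 to 1.03, adjusted p of 0.0609 to 0.146, edgeR). It was also lost with RLE size factors (0.80, 0.158), with no filter (0.93, 0.0646), with the replicate block (0.91, 0.0501) and in DESeq2 (0.80, 0.265).

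MiR-382-5p showed the least spread of the abundant arms at E8.5, at 5370, 5205 and 5256 CPM. It stood at 11387, 7949 and 11905 CPM at E9.5, at 16400, 20495 and 14494 CPM at E10.5 and at 20374, 14534 and 11258 CPM at E11.5. The libraries of E8.5, E9.5 and E10.5 did not overlap with each other, and those of E11.5 overlapped with both E9.5 and E10.5. The level rose by 1.54 from E8.5 to E11.5 (log2, SE 0.34, adjusted p = 0.00272, edgeR), a call that also held in all 12 fits that left out a library and in the 8 other alternatives, with log2 values of 1.42 to 1.75. The steps in between were 0.98 from E8.5 to E9.5 (adjusted p = 0.0957, edgeR) and 0.72 from E9.5 to E10.5 (adjusted p = 0.251, edgeR), and neither passed in this fit. The first passed with RLE size factors (log2 1.64, adjusted p = 0.00733, edgeR), with mature arms only (1.11, 0.0377), with only the 2 stages compared (1.6, 0.0348) and in DESeq2 (1.64, 0.000922).

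MiR-541-5p, the third arm in abundance, gave a different picture. It stood at 12670, 11951 and 10441 CPM at E8.5, at 17629, 13385 and 11371 CPM at E9.5, at 15010, 21126 and 14909 CPM at E10.5 and at 16682, 11608 and 9287 CPM at E11.5. The libraries of E11.5 overlapped with those of every other stage. Its E11.5 difference from E8.5 was 0.10 (log2, SE 0.32, adjusted p = 0.917, edgeR), with a sign that turned under other scalings, and it was called in no comparison of the fit over all 12 libraries.

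The make-up of the cluster by these 4 arms differed between stages. MiR-541-5p made up 16.9%, 14.3% and 14.8% of the cluster's mature counts at E8.5 and 10.4%, 9.45% and 8.16% at E11.5. MiR-382-5p made up 7.16%, 6.23% and 7.44% at E8.5 and 12.7%, 11.8% and 9.89% at E11.5. For both arms the libraries of these stages did not overlap, and the order of the 2 arms was opposite in each library. MiR-379-5p was 18.3% ± 1.16 (SD, n = 3), 15.9% ± 0.893, 26.6% ± 3.88 and 22.9% ± 1.04 from E8.5 through E11.5. MiR-409-3p was 16.7% ± 1.58, 24.7% ± 9.15, 18.3% ± 1.28 and 18.2% ± 0.387 in the same order. At E9.5 miR-409-3p made up 22.2%, 17.1% and 34.9%, and the last of these is the shallowest library. These shares do not depend on how libraries are scaled, and they were not tested.

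**Figure D4:**
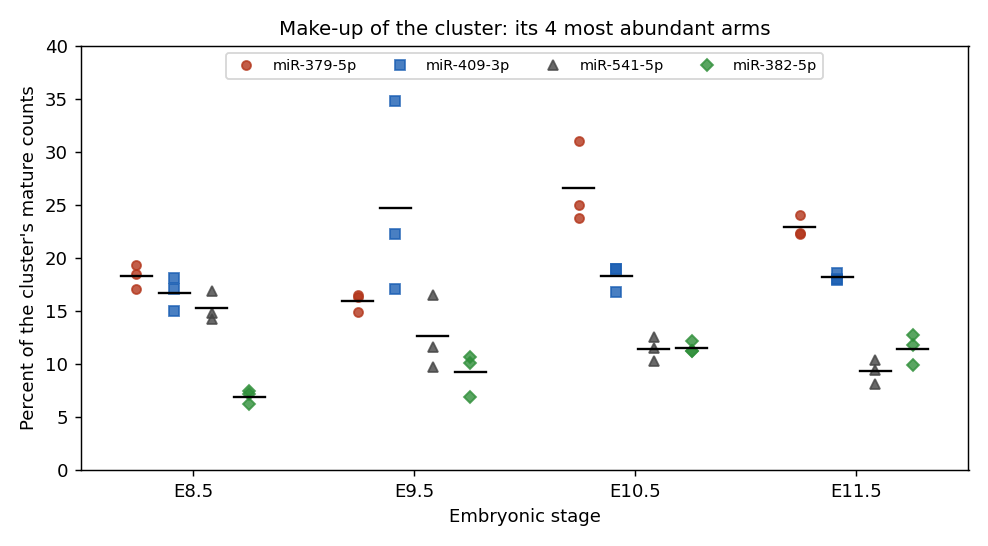
Percent of the cluster's mature counts held by each of its 4 most abundant arms, by embryonic stage, with 1 point per library and a line at the mean of 3 libraries. MiR-541-5p lies above miR-382-5p in the 3 libraries of E8.5 and below it in the 3 libraries of E11.5.

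The other 6 of the 10 most abundant arms were called in no comparison of the edgeR fit over all 12 libraries. With only the 2 stages compared, miR-369-3p (log2 0.94, adjusted p = 0.0268, edgeR) and miR-411-5p (0.82, 0.0473) were called higher at E11.5 than at E8.5. DESeq2 called miR-495-3p higher at E9.5 than at E8.5 (log2 1.34, adjusted p = 0.0484) and lower at E11.5 than at E9.5 (-1.40, 0.0498). Of the 10 most abundant arms, 8 had libraries at E11.5 that were all higher than those of E8.5, and miR-541-5p and miR-495-3p overlapped. Over all tested members it was 18 of 71, against 17.3% of all entries tested. The 10 arms were picked for abundance, and abundant arms varied less between libraries. Their share is therefore not like for like with that of entries of all levels. MiR-369-3p stood at 2994, 3108 and 3069 CPM at E8.5 and 6084, 6253 and 4916 CPM at E11.5, a log2 difference of 0.91 (SE 0.54, adjusted p = 0.382, edgeR). MiR-543-3p differed by 0.63 (SE 0.53), miR-411-5p by 0.79 (SE 0.45), miR-323-3p by 0.61 (SE 0.58) and miR-487b-3p by 0.89 (SE 0.56) on the log2 scale, with adjusted p of 0.333 to 0.691 by edgeR. MiR-495-3p differed by 0.02 (log2, SE 0.57, adjusted p = 0.984, edgeR). The 3 libraries of E9.5 lay widest apart for miR-323-3p, at 1993, 7251 and 865 CPM, and for miR-543-3p, at 6682, 9486 and 1323 CPM, with the lowest value of each in replicate 3. For miR-411-5p and miR-495-3p the highest of them was 1.69 and 1.76 times the lowest.

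Between E8.5 and E9.5, where driver, region and stage all changed, 1 of the 71 members was called, which was higher, against 5.6% of all entries (4.03% higher, 1.58% lower). An unadjusted p under 0.05 by edgeR was found for 6 members and for 114 of all 571 entries. The median log2 difference of the members was 0.17, while that of all entries tested was -0.84. Members whose libraries did not overlap numbered 14, of which 5 were higher and 9 lower at E9.5, against 34.3% of all entries (6.83% higher, 27.5% lower). The higher ones with the largest differences were miR-381-3p, miR-409-3p and the precursor mir-485, and the lower ones were the precursor mir-496a, miR-323-5p and miR-299a-3p. MiR-323-5p stood at 95.7, 325 and 266 CPM at E8.5 and at 0, 10.7 and 50.9 CPM at E9.5, on 0, 1 and 2 counts. MiR-299a-3p stood at 50.5, 135 and 198 CPM at E8.5 and had 1 count in each library of E9.5. Mir-496a stood at 99.2, 88.4 and 252 CPM at E8.5 and had 1 count in all at E9.5. None of these 3 values at E9.5 was above the floor of 3 counts, so the lower levels were at the limit of depth there. DESeq2 called 9 members in this comparison, all higher at E9.5, of 55 to which it gave an adjusted p. Of all entries with an adjusted p it called 20.7% (16.5% higher, 4.19% lower).

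From E9.5 to E10.5, 2 of the 71 members were called, both higher, against 4.38% of all entries (1.58% higher, 2.8% lower). An unadjusted p under 0.05 by edgeR was found for 7 members and for 104 of all 571 entries. The median log2 difference was 0.46 for the members and 0.17 for all entries. The libraries of 10 members did not overlap, 8 higher and 2 lower at E10.5, against 15.8% of all entries (8.76% higher, 7.01% lower). MiR-381-3p was the most different member in the lower direction. It stood at 463, 676 and 156 CPM at E8.5, at 1650, 1504 and 1882 CPM at E9.5, and at 211, 17.3 and 188 CPM at E10.5 and 624, 316 and 165 CPM at E11.5. The E9.5 libraries were higher than all 9 others. The E10.5 difference from E9.5 was -3.58 (log2, SE 1.11, adjusted p = 0.0672, edgeR), which missed the threshold, and DESeq2 gave -4.17 with adjusted p = 2.37e-05. It also passed in edgeR with RLE size factors (-4.18, adjusted p = 0.0284), with mature arms only (-3.66, adjusted p = 0.0462) and without E9.5 replicate 2 (-3.88, adjusted p = 0.0458). The other member lower at E10.5 without overlap was miR-299b-3p, with 1 count in each library of E9.5 and 1 count in all at E10.5. Among those higher were miR-376a-5p, at 0, 10.7 and 25.4 CPM at E9.5 and 230, 389 and 153 CPM at E10.5 (log2 4.48, SE 2.33, adjusted p = 0.305, edgeR), and the precursor mir-300, at 0, 32.2 and 50.9 CPM and then 406, 752 and 235 CPM (log2 4.09, SE 1.97, adjusted p = 0.274, edgeR).

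From E10.5 to E11.5 no member was called by edgeR or by DESeq2, which called 1.51% of all entries with an adjusted p. By edgeR, 5 members and 61 of all 571 entries had an unadjusted p under 0.05, and 0.35% of all entries were called, each of them lower. The median log2 difference was -0.13 for the members and 0.07 for all entries. The libraries of 7 members did not overlap, all of them higher at E11.5, against 13.5% of all entries (9.81% higher, 3.68% lower). The largest differences were those of the precursors mir-377 and mir-496a and of miR-299b-3p. Mir-377 and mir-496a were at 0 in all 3 libraries of E10.5, and at E11.5 they had 5, 130 and 76 counts and 29, 1 and 1 counts. MiR-299b-3p had 1, 0 and 0 counts at E10.5 and 3, 198 and 182 at E11.5. MiR-369-3p, with 4545, 3370 and 2744 CPM at E10.5, was the only one of the 10 most abundant arms without overlap here, at a log2 difference of 0.69 (SE 0.54, adjusted p = 0.709, edgeR).

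Over the whole interval from E8.5 to E11.5, 3 of the 71 members were called, all higher, against 11.6% of all entries (5.25% higher, 6.3% lower). An unadjusted p under 0.05 by edgeR was found for 5 members and for 133 of all 571 entries. These comparisons reuse the libraries of the steps above and are not independent of them. The members had a median log2 difference of 0.69 and all entries one of -0.07. Of the 71 members 55 had a fitted difference above 0, as did 24 of the 32 upstream entries and 277 of all 571 entries. The libraries of 21 members did not overlap, 18 higher and 3 lower at E11.5, against 38.5% of all entries (17.3% higher, 21.2% lower). MiR-379-3p had the largest difference of those higher, 2.05 (log2, SE 1.00, adjusted p = 0.218, edgeR), and miR-667-3p came next at 1.90 (SE 1.34, adjusted p = 0.523), with 344, 294 and 7.27 CPM at E8.5 and 789, 947 and 675 CPM at E11.5. The 3 lower members were mir-496a, miR-323-5p and miR-494-3p. MiR-494-3p was the only abundant one of them, at 2194, 2833 and 2855 CPM at E8.5 and 1940, 1701 and 1826 CPM at E11.5, a log2 difference of -0.53 (SE 0.75, adjusted p = 0.829, edgeR). MiR-323-5p stood at 80.3, 92.9 and 0 CPM at E11.5, below all libraries of E8.5, while miR-323-3p of the same hairpin was above them.

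Between E9.5 and E11.5, both Pdx1-Cre stages, no member was called by edgeR, against 4.55% of all entries (1.23% higher, 3.33% lower). An unadjusted p under 0.05 by edgeR was found for 4 members and for 105 of all 571 entries. DESeq2 called 4 of 63 members with an adjusted p, against 13.9% of all such entries (1.52% higher, 12.4% lower), with miR-379-3p higher and miR-381-3p, miR-495-3p and miR-666-3p lower at E11.5. The median log2 difference was 0.71 for the members and 0.66 for all entries. The libraries of 11 members did not overlap, 10 higher and 1 lower, against 22.6% of all entries (16.6% higher, 5.95% lower). The lower one was miR-381-3p, at a log2 difference of -2.19 (SE 1.04, adjusted p = 0.260, edgeR). The higher ones with the largest differences were miR-379-3p, the precursor mir-412 and miR-329-5p. Mir-412 stood at 16.3, 32.2 and 0 CPM at E9.5 and 172, 234 and 108 CPM at E11.5, and miR-329-5p at 16.3, 21.5 and 0 CPM and 140, 223 and 27.8 CPM. At E9.5 these last 2 entries had no more than 3 counts in any library.

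**Figure D5:**
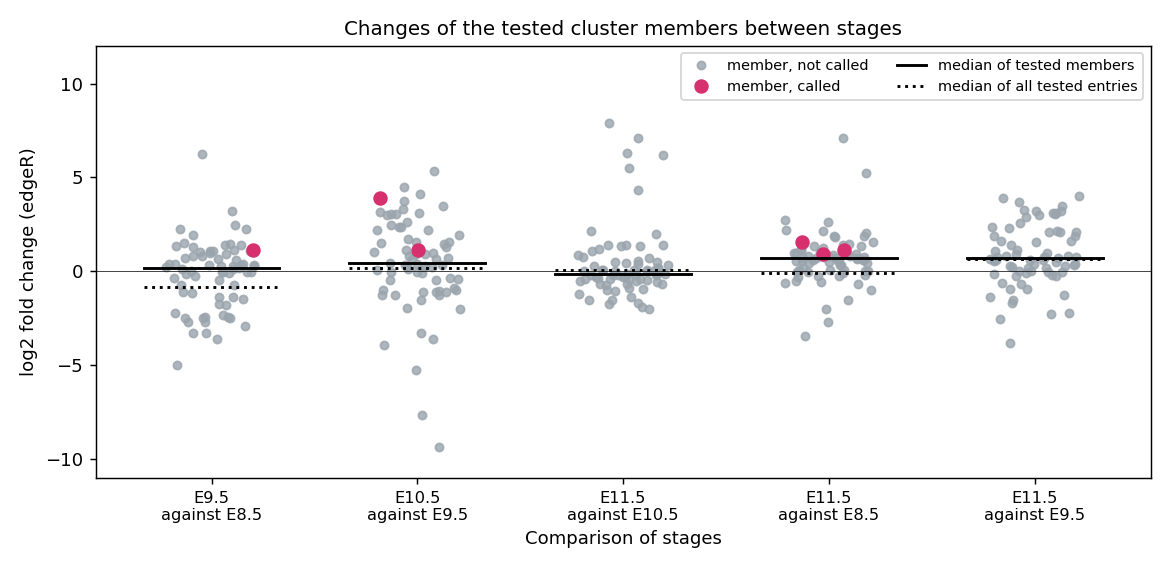
Log2 fold change (edgeR) of each of the 71 tested members in 5 comparisons of stages, with called members as large points, the median of the members as a solid line and that of all entries tested as a dotted line. The solid line lies above the dotted one in E9.5 against E8.5 (0.17 and -0.84) and in E11.5 against E8.5 (0.69 and -0.07), and the called members are few beside those that were not called.

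The medians of all entries moved with the scaling, by 0.64 in E9.5 against E8.5 and by -0.71 in E11.5 against E9.5 when RLE size factors were used (log2). Relative to that median, the members were higher by 1.01 in E9.5 against E8.5 and by 0.76 in E11.5 against E8.5 with TMM, by 1.05 and 0.82 with RLE size factors, and by 1.10 and 0.80 with library size alone. In E11.5 against E10.5 they were lower by 0.21, 0.17 and 0.15, and in E11.5 against E9.5 the 2 medians differed by 0.05 or less. In E10.5 against E9.5 they were higher by 0.28, 0.40 and 0.21. With TMM the tested upstream entries had medians (log2) of -0.54 in E9.5 against E8.5 and 0.65 in E11.5 against E8.5. The members had 0.17 and 0.69 there. In E10.5 against E9.5, E11.5 against E10.5 and E11.5 against E9.5 the upstream medians were 0.91, -0.43 and 0.66, and those of the members 0.46, -0.13 and 0.71. The split of all called entries moved with the scaling too. With RLE size factors 44 were higher and 6 lower in E9.5 against E8.5, in place of 23 and 9. In E10.5 against E9.5 it was 1 and 23 in place of 9 and 16, and in E11.5 against E9.5 it was 0 and 27 in place of 7 and 19.

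The hairpins differed in which arm they gave. Among the 26 hairpins with both arms in the table and at least 100 counts, the 5p arm gave more reads in 10 and the 3p arm in 16. In 13 of them the dominant arm held more than 90% of the reads of both arms, and in 4 it held less than 75%. The dominant arm was the same in every library with counts in 13 hairpins. Arm shares in this paragraph are of the reads of both arms, with precursor reads left out. MiR-541-5p held 99.9% and miR-382-5p 99.1% of the arm reads of their hairpins. The 3p arm held 97.5% in mir-409 and 98.8% in mir-543. Mir-134, whose 5p arm is the one studied in neurons, gave 99.9% of its arm reads from that arm. The hairpins mir-379 and mir-411, whose 3p arms share a seed, differed in balance, since the 5p arm held 96.9% in mir-379 and 74.8% in mir-411. In mir-411 the 5p share was 71.1% ± 6.54 (SD, n = 3), 74.9% ± 18.0, 86.8% ± 4.27 and 74.1% ± 3.21 from E8.5 through E11.5. By seed, the pair of miR-379-3p and miR-411-3p had 11541 counts in all, of which miR-411-3p gave 7801, and the pair of miR-379-5p and miR-1193-5p had 117855, of which miR-1193-5p gave 190. The near-identical miR-376b-5p and miR-376c-5p had 174 and 16 counts. Both arms were near equal in mir-666 and mir-485. In mir-666 the 5p arm held 51.1% of 1929 arm reads over the series and 0% to 73.9% in single libraries, and it was the larger arm in 4 of 12. In the more abundant mir-485 the 5p arm held 53.6% of the arm reads over the series and 30.8% to 92.7% in single libraries, and it was the larger arm in 7 of 12 libraries.

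Precursor entries took 0.842% ± 0.106 (SD, n = 3), 1.11% ± 0.248, 1.65% ± 0.244 and 1.54% ± 0.393 of all counts from E8.5 through E11.5. How reads were divided between precursor and arms is not given in the sources used here. In the median hairpin the precursor held 6.26% of its reads, and it held more than 50% in 4 of 32 hairpins. Mir-485 stood apart by size, with 20597 precursor counts, 65.6% of the hairpin's reads and 50.9% to 78.8% in single libraries. Its precursor entry stood at 1969, 2308 and 1921 CPM at E8.5, at 3888, 4200 and 4935 CPM at E9.5, at 4032, 9859 and 3167 CPM at E10.5 and at 6189, 5993 and 5104 CPM at E11.5. All libraries of the later stages were above those of E8.5. The differences from E8.5 were 1.07 at E9.5 (log2, SE 0.49, adjusted p = 0.231, edgeR) and 1.48 at E11.5 (log2, SE 0.50, adjusted p = 0.0544, edgeR), and neither passed in this fit. The first passed with RLE size factors (1.74, adjusted p = 0.0450, edgeR) and in DESeq2 (1.74, 0.00869), and the second with only the 2 stages compared (1.51, 0.00194). No precursor of the cluster was called in the edgeR fit over all 12 libraries, and DESeq2 also called the precursor mir-379 higher at E9.5 than at E8.5 (log2 3.18, adjusted p = 0.0233).

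The lists of miRNAs that mark cell types moved between the same stages, and their part in the results above was not tested. Both pancreatic markers, miR-375-3p and miR-7a-5p, were present throughout. Their summed level ran from 23116 to 27663 CPM in E8.5 libraries, 34061 to 59208 in E9.5, 96977 to 139888 in E10.5 and 73430 to 111906 in E11.5. The hepatic pair miR-122-5p and miR-122-3p summed to no more than 597 CPM in E8.5 libraries but to 39021 to 91802 in E9.5, 72156 to 131533 in E10.5 and 43486 to 70385 in E11.5, which are labelled pancreas. MiR-122-3p was at 0 in all libraries of E8.5 and of E10.5. The 7 pluripotency and early embryo markers summed to less at each stage than at the one before, without overlap, from 36901 to 65211 CPM in E8.5 libraries to no more than 742 in E11.5. The 5 epithelial markers lay at 9080 to 11094 CPM in E8.5 libraries and at 16555 to 39180 later. All 6 mesenchymal markers were in the table, and their sum was lowest in E9.5 libraries, at 1418 to 5011 CPM. It was 6831 to 13314 in E8.5, 3396 to 11468 in E10.5 and 3800 to 8074 in E11.5. MiR-199a-5p of that list was at 0 in all libraries of E8.5, and miR-140-3p in all of E9.5. Of 5 neural markers 3 were in the table, their sum reached at most 510 CPM in any library, and miR-9-3p was at 0 in all libraries of E9.5 and of E11.5. The muscle and heart markers, 3 of 4, summed to 6324 to 26704 CPM in E8.5 libraries, 5310 to 27015 in E9.5, 268 to 3539 in E10.5 and 282 to 1721 in E11.5, with miR-133a-3p at 0 in the last 2 stages. The endothelial pair summed to 1832 to 2295 CPM in E8.5 libraries and lay lower in every later one, and the erythroid markers, 2 of 4, at most 839 in any library. The leukocyte markers, 2 of 4, reached 2671 CPM in E9.5 libraries, 59.6 in E8.5 and no more than 3.83 at the other stages. The p-values given here measure the spread between these libraries only.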

How the data were processed

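The values used were raw counts of reads, deposited by the authors as a single table of miRNA entries by library, with no normalisation. Per the study's methods, the COMPSRA pipeline (mm10) removed the adapter and 4 random bases, and reads were aligned with STAR and counted against mature and precursor entries. Per the file headers, reads of 17 to 35 bases were kept, or to 36 in 2 libraries (replicate 1 of E8.5, replicate 3 of E9.5). Tool versions are not given in the sources used here. The random bases were not used to count molecules.

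Counts were tested with edgeR 4.0.16 (glmQLFit and glmQLFTest, R 4.3.3) in 1 fit of all 12 libraries with stage as factor, TMM factors (0.733 to 1.17) and filterByExpr (minimum count 10, minimum total 15). P-values were adjusted by the Benjamini-Hochberg method over all entries tested. SE is the size of the log2 fold change divided by the square root of F. The common biological coefficient of variation was 1.19. Depth was 53996 to 1103383 counts per library. Alternatives were RLE size factors, library size alone, no filter, 10 counts in 3 libraries, DESeq2 1.42.0, mature arms only, a replicate block, only the 2 stages compared, and leaving out each library.

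Members and lists were chosen with earlier results of these data known. Entries were named by a rule: every called member, the 10 arms with the highest mean CPM, up to 3 higher and 3 lower members without overlap per comparison, and arms sharing their seed. MiR-134, miR-485 and arm or precursor shares of other hairpins, and the upstream and outside miRNAs, were named in addition, after their values were seen. Sequences were copied from RefSeq (GRCm38.p6), and gene context from GENCODE M21.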

Additional observations from a re-analysis of the deposited data

How the results depend on the processing

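Depth limited what could be seen at E9.5, where 3 counts stand for 32.2 to 76.3 CPM. The count of called members in E9.5 against E8.5, 1 as reported, was 4 with RLE size factors, 0 with library size alone, 9 in DESeq2, 2 with mature arms only and 2 with only the 2 stages compared. In E10.5 against E9.5, 2 as reported, it was 1 with RLE size factors, 1 with the replicate block and 0 with only the 2 stages compared. In E11.5 against E8.5, 3 as reported, it was 7 with only the 2 stages compared. In E11.5 against E9.5, 0 as reported, it was 4 in DESeq2, and in the test over 4 stages, 4 as reported, it was 8 in DESeq2. E11.5 against E10.5 gave 0 under every alternative run. The cause of these differences was not tested. Leaving out 1 library gave counts of called members of 0 to 2, 0 to 3, 2 to 4, 0 to 1 and 1 to 5 in the order above and 0 in E11.5 against E10.5. In E9.5 against E8.5 the count was 0 without any 1 of the E8.5 libraries or E9.5 replicate 3, and 2 without E9.5 replicate 2 or E10.5 replicate 1. In E10.5 against E9.5 it was 0 without E10.5 replicate 1 or 2, and 1 without any 1 of the E8.5 or E11.5 libraries. In E11.5 against E9.5 it was 1 without E10.5 replicate 3. In the test over 4 stages it was 2 without E10.5 replicate 2, E11.5 replicate 2 or either of replicates 1 and 3 of E8.5, and leaving out replicate 2 of E8.5 gave 1.

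The summed mature level at E8.5, 76398 CPM, was 67918 CPM with RLE size factors and 87113 CPM with mature arms only. At E9.5, 113067 CPM, it was 158634 CPM with RLE size factors, 107066 CPM with library size alone and 141122 CPM with mature arms only. At E10.5 it was 176660 CPM with mature arms only. Leaving out 1 library gave 72808 to 79285 (E8.5), 110992 to 116306 (E9.5), 137862 to 157136 (E10.5) and 118315 to 141587 CPM (E11.5). The sign turned for 2 arms near 0 in E11.5 against E8.5 (log2). MiR-495-3p (0.02) went to -0.0594 with RLE size factors, -0.0589 with library size alone and -0.0595 in DESeq2, and lay between -0.25 and 0.25 when 1 library was left out, with -0.25 without E8.5 replicate 3 and -0.12 without E11.5 replicate 1. MiR-541-5p (0.10) went to -0.0010, -0.0055 and -0.0011, and lay between -0.024 and 0.30, with -0.024 without E11.5 replicate 1.

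Stages share replicate numbers in the labels, but the numbers did not pair the libraries. Deviations from the stage means correlated at -0.15 to 0.11 for libraries with the same number (18 pairs) and at -0.14 to 0.13 for others (36 pairs), and 4 of 12 libraries correlated best with a library of their own number. With the replicate block the counts of called members were 1, 1, 0, 2, 0 and 3 in E9.5 against E8.5, E10.5 against E9.5, E11.5 against E10.5, E11.5 against E8.5, E11.5 against E9.5 and the test over 4 stages.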
